A study of Mus musculus with 4 samples.

Results

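The Hox genes of the 4 mammalian clusters were examined for Gata4 peaks in WT and DKO Flk1(+) mesoderm cells. A peak was counted as a Hox peak when the deposited list gave 1 of 38 Hox genes as lying within 5 kb of it, and a peak near several Hox genes was counted once. This gave 13 of 20410 peaks in the WT list and 11 of 22733 peaks in the DKO list, or 24 of 43143 peaks in all.

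Gata4 was mapped by ChIP-seq in 4 libraries, 1 per condition. All were made from mouse ES cell clones of the J1 line, 1 clone for each genotype, that express Gata4GR from the CAG promoter. In Gata4GR, Gata4 is joined to the hormone-binding part of the human glucocorticoid receptor, so that dexamethasone (Dex) activates it. The WT Flk1(+) and DKO Flk1(+) cells were differentiated on OP9 stroma cells, received 100 nM Dex for 3 hr at day 4.5 and were then sorted with magnetic beads for Flk1, a receptor of early mesoderm. DKO cells lack Dnmt3a and Dnmt3b, the *de novo* DNA methyltransferases. For WT ES and DKO ES, undifferentiated cells that carry Gata4GR were used without Dex, and each of these libraries served as the background for the list of its genotype. The lists hold no expression values, so the mesoderm identity of the sorted cells could not be checked against marker genes. They do not give the sequencing depth. The methods of the study give more mapped reads for the DKO Flk1(+) library than for the WT Flk1(+) library, and they do not say whether peak heights were scaled for this. No condition was replicated, so every WT and DKO value describes a single library and no difference between them was tested.

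Hox genes encode homeodomain transcription factors that assign position along the body axis. Their order within a cluster follows the order of their expression, with the low-numbered genes switched on early and toward the head and the high-numbered genes late and toward the tail. In ES cells the clusters are held silent mainly by Polycomb proteins, and their DNA is rich in CpG islands. Gata4 is a zinc-finger factor of heart, gut and extraembryonic endoderm that binds the core sequence GATA.

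The 4 clusters differed in how many peaks each list placed in them. In HoxA, the WT list had 1 peak and the DKO list 6, or 5 when peaks within 500 bp were merged. In HoxB the order was the opposite, with 5 WT peaks and 1 DKO peak. HoxC held 1 WT peak and 0 DKO peaks, and HoxD held 6 WT and 4 DKO peaks. These counts rest mostly on weak peaks. Among the better-ranked peaks of each list, those above its middle rank by the authors' q-value, HoxA had 0 WT peaks and 1 DKO peak and HoxB 2 and 0, and with an enrichment over ES cells of 4 or more they had 0 and 1, and 1 and 0. The WT list named 15 of the 38 genes (39.5%), beside 36.4% of 22238 protein-coding genes in the annotation. The DKO list named 13 (34.2%), beside 45.5%. Named genes thus made up a share near that of all genes in the WT list and a smaller one in the DKO list. Neighboring Hox genes were often named by the same peak, so the genes are not independent counts, and the difference was not tested. Both lists named 8 genes, *Hoxa7*, *Hoxa9*, *Hoxb5*, *Hoxb6*, *Hoxd3*, *Hoxd10*, *Hoxd11* and *Hoxd12* (21.1% of the 38, beside 29.6% of all protein-coding genes). Another 7 were named in the WT list alone, *Hoxb1*, *Hoxb2*, *Hoxb3*, *Hoxc8*, *Hoxd1*, *Hoxd8* and *Hoxd9*, and 5 in the DKO list alone, all of HoxA, *Hoxa2*, *Hoxa3*, *Hoxa5*, *Hoxa6* and *Hoxa13*. These are 18.4% and 13.2% of the 38 genes, beside 6.82% and 15.9% of all protein-coding genes. The remaining 18 genes were named in neither list. They included 8 of the 9 HoxC genes, *Hoxd4* and *Hoxd13*, *Hoxb4*, *Hoxb7*, *Hoxb8*, *Hoxb9* and *Hoxb13*, and *Hoxa4*, *Hoxa10* and *Hoxa11*. One of these HoxC genes, *Hoxc6*, holds WT peaks in an intron by the GENCODE annotation, although the lists did not name it. A gene without a listed peak may still carry signal below the thresholds of the authors' peak calling. With peaks above the middle rank alone, the lists named 5 Hox genes in WT and 4 in DKO cells. With peaks within 1 kb of the gene alone, each list named 7.

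**Figure D1:**
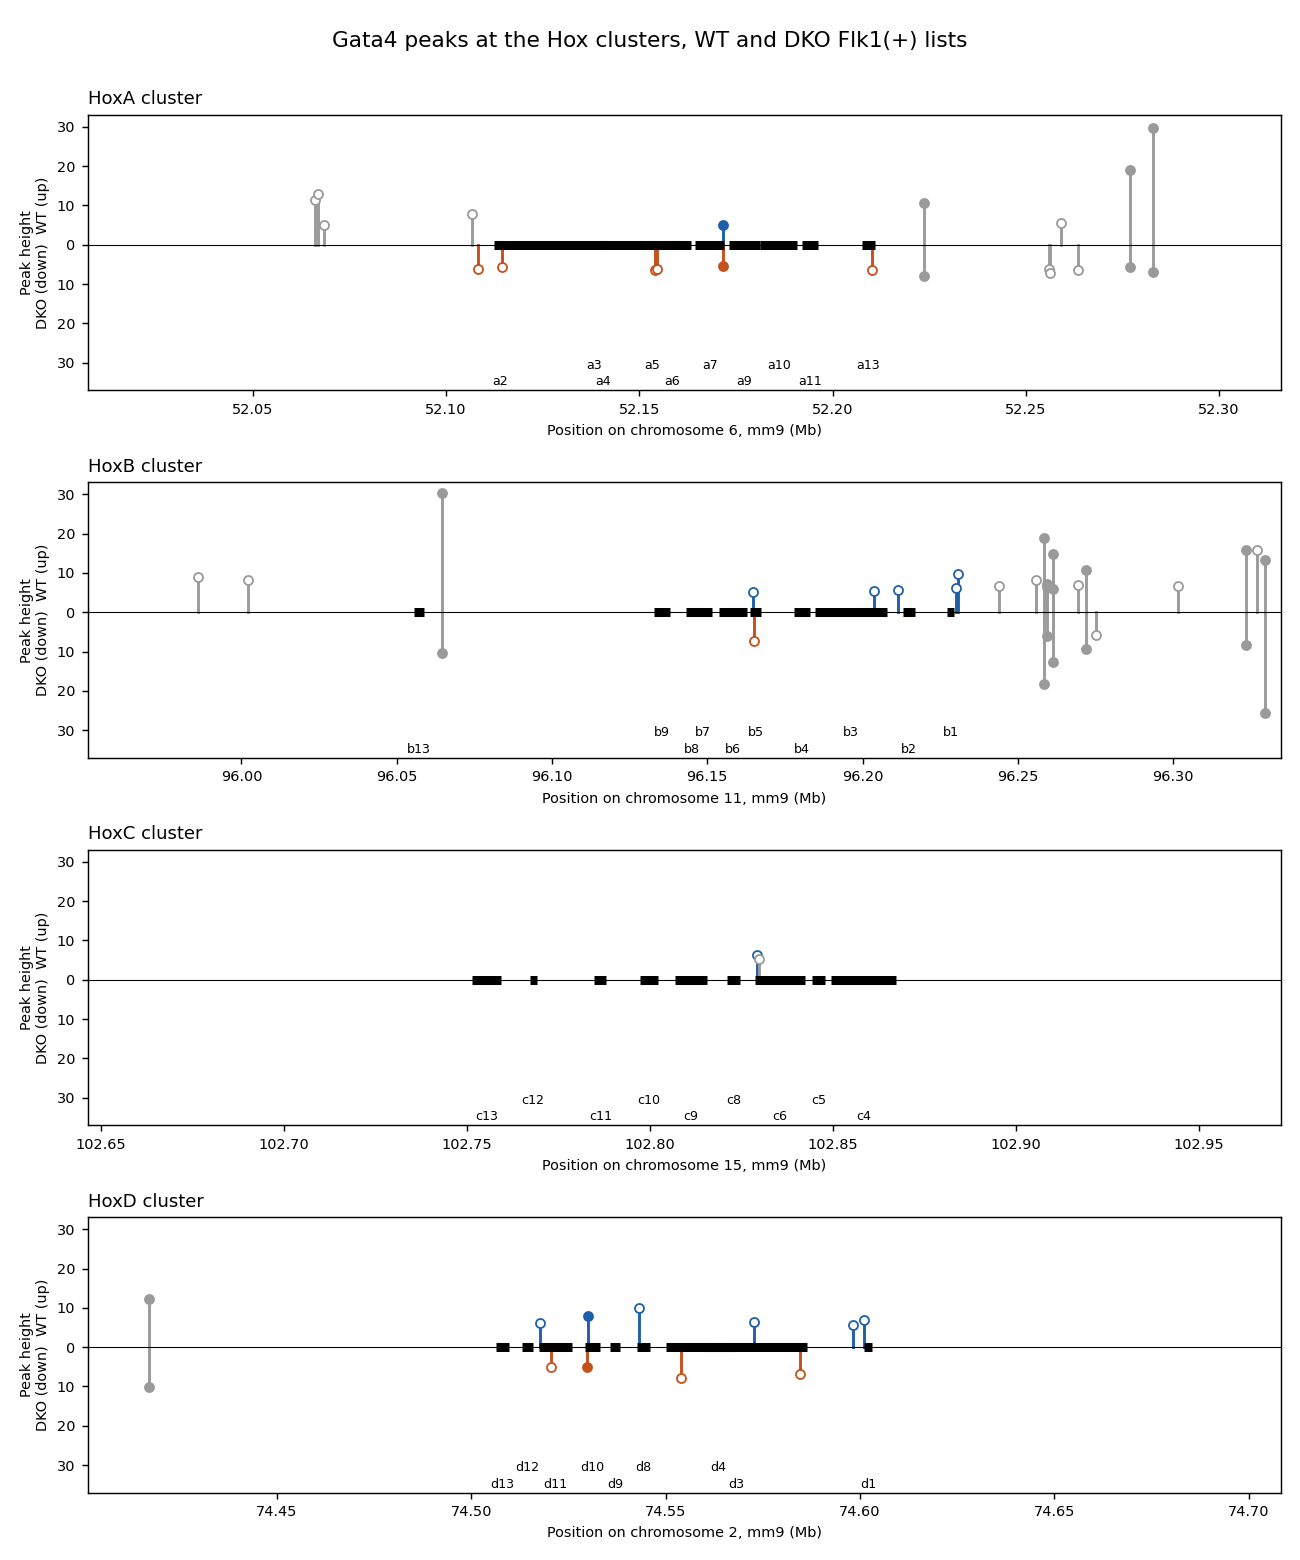
Gata4 peaks in and around the HoxA, HoxB, HoxC and HoxD clusters, drawn to scale on mm9 with WT peak height upward and DKO peak height downward in the units of the deposited lists. Black bars are the member genes, named below by cluster letter and number. Colored stems are Hox peaks and gray stems are other peaks within 100 kb of the span, and a filled circle marks a peak with a peak of the other list within 500 bp. Of the colored stems, 2 in each list are filled.

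Most Hox peaks lay near the lower limits of both lists. The lists give for each peak the height of the read profile in the Flk1(+) library, the height in the ES library, and their ratio, called enrichment, for which an ES height below 1 is taken as 1. A height of at least 5.0 and an enrichment of at least 3.0 were needed for a peak to be listed. The median height of WT Hox peaks was 6.23 (range 5.02 to 10.0), against 7.74 over the whole WT list. In DKO cells the median was 6.24 (5.00 to 7.77), against 6.91. Only 3 of 13 WT and 2 of 11 DKO Hox peaks were taller than the median of their list. The median enrichment was 3.57 in WT and 3.34 in DKO cells, against 4.53 and 4.37 over the lists. An enrichment below 4 was found for 10 of 13 WT Hox peaks (76.9%, 95% Wilson interval 49.7 to 91.8) beside 37.8% of the whole list, and for 9 of 11 DKO Hox peaks (81.8%, 52.3 to 94.9) beside 40.7%. These intervals cover the counting error within 1 library and not the spread between libraries. The ES height itself was close to that of other peaks, with a median of 1.66 at WT Hox peaks (whole list 1.68) and 1.67 at DKO Hox peaks (whole list 1.58). Hox peaks thus differed from the other peaks in their Flk1(+) height more than in their ES background. By the deposited rank, which orders each list by the authors' q-value with 1 as the best, 5 WT and 2 DKO Hox peaks stood in the upper part of their lists, above the middle rank.

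**Figure D2:**
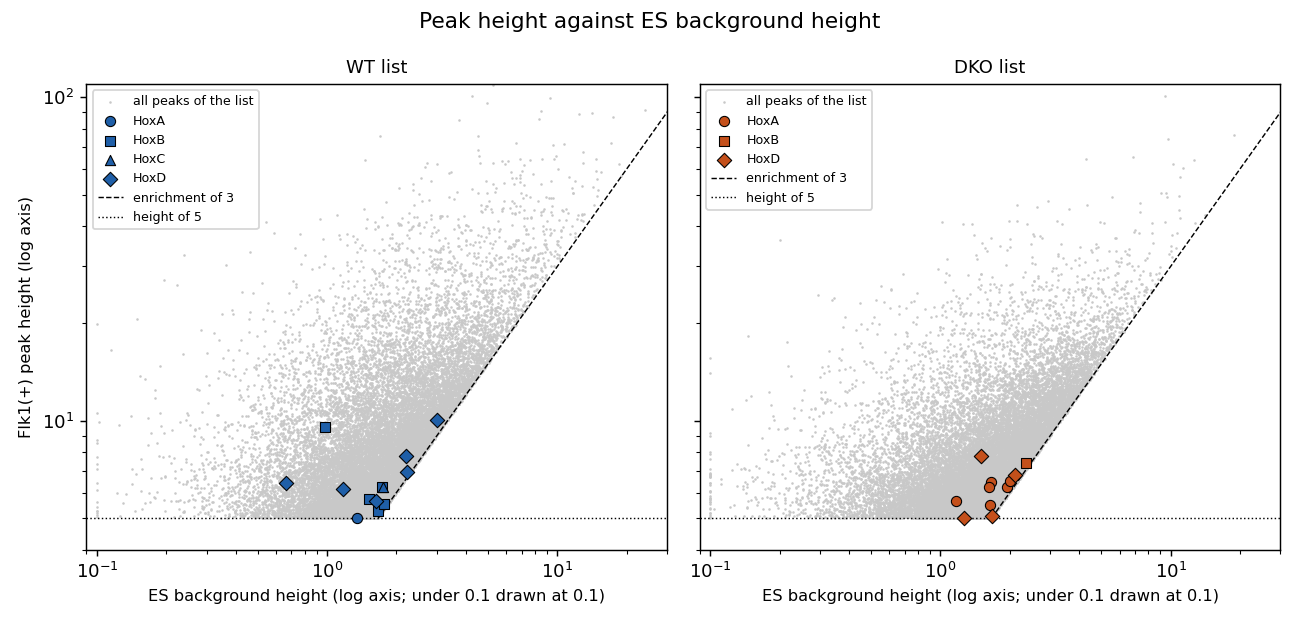
Height of each peak in the Flk1(+) library against its height in the ES library of the same genotype, both on log axes in the units of the deposited lists, with all peaks in gray and Hox peaks marked by cluster. The dotted line is the height of 5 and the dashed line the enrichment of 3 from which peaks were listed. WT Hox peaks range in height from 5.02 to 10.0 and DKO Hox peaks from 5.00 to 7.77. Most lie near the dashed line, with an enrichment below 4 for 10 of 13 WT and 9 of 11 DKO Hox peaks. The best-ranked WT peak, beside *Hoxb1*, lies far from it, with an enrichment of 9.60.

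Among the genes of paralog classes 1 to 4, which pattern the hindbrain, the pharyngeal arches and the neck, the WT list named 5 of 11 and the DKO list 3 of 11, and only *Hoxd3* was in both. By the nearest gene, 7 of the 13 WT Hox peaks and 4 of the 11 DKO Hox peaks belonged here. The best-ranked Hox peak of the WT list lay beside *Hoxb1*, a gene of hindbrain segment identity that responds to retinoic acid. It was centred at position 96230601 of chromosome 11 (mm9), 1034 bp beyond the 3′ end of *Hoxb1* and outside every annotated gene, at the edge of the cluster. Its height was 9.60 in the WT Flk1(+) library and 0.979 in WT ES cells. The enrichment was 9.60 and the rank 3044 of 20410. The window deposited for each peak, which reaches 250 bp to either side, held 7 CpGs here, few for a Hox peak, and 1 GATA motif, 40.5 bp from its centre. A lower WT peak, of height 6.23, lay between it and the gene, 524 bp from *Hoxb1*. The DKO peak nearest to the best-ranked one was 27909 bp away.

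*Hoxd3*, which shapes the upper vertebrae, was the gene of this class with peaks in both lists, at different places. The WT peak, at position 74572709 of chromosome 2, lay in an intron and was the best-ranked WT peak of HoxD. It had a height of 6.43 over an ES height of 0.662, an enrichment of 6.43 and rank 8935, with 16 CpGs and 2 GATA motifs, 46.5 and 76.5 bp from the centre. The best-ranked Hox peak of the DKO list was also in an intron of *Hoxd3*, at position 74554061, where an exon of the non-coding gene 1700109F18Rik overlaps it. Its height was 7.77 over an ES height of 1.49, with an enrichment of 5.20 and rank 3500 of 22733. Its window held 20 CpGs and 0 GATA motifs, and the nearest WT peak was 11055 bp away, at *Hoxd8*. A DKO peak of height 6.79 also lay in the coding exon of *Hoxd3*, 11895 bp from the intronic WT peak.

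Of the other peaks of this class, those in the WT list lay in an intron of *Hoxb3* (height 5.52), upstream of *Hoxb2* (5.73), 2755 bp upstream of *Hoxd1* (5.66) and at the start of *Hoxd1*, which acts in sensory neurons (6.94). The *Hoxd1* peaks differed in sequence, with 1 CpG in the window of the upstream peak and 56 CpGs at the start. In the DKO list, *Hoxa2*, which specifies the skeleton of the hyoid arch, had a peak in its coding exon 297 bp from its start (height 5.66, ES height 1.17, enrichment 4.82) and a peak 4262 bp from the gene (height 6.23, ES height 1.95, enrichment 3.19). The nearest WT peak was 7912 bp from the coding-exon peak and 1627 bp from the other. The deposited list also gave *Hoxa3*, a gene of thymus and parathyroid development whose long transcripts span its neighbors, for 3 DKO peaks.

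In paralog classes 5 to 8, which act in the trunk, each list named 5 of 11 genes, and 3 were in both. *Hoxa5*, needed for the lung and airway, had 2 DKO peaks and 0 WT peaks. The better-ranked of them, at position 52154487 of chromosome 6, was the best-ranked DKO peak of HoxA. It lay in the UTR 99 bp from the start of *Hoxa5*, with a height of 6.24, an ES height of 1.62, an enrichment of 3.85 and rank 7898, and had 38 CpGs and 0 GATA motifs. The other lay in the coding exon, 563 bp from the start, and was slightly taller at 6.48 (ES height 1.67), but ranked 18901. Height and rank therefore did not run in parallel. The list gave *Hoxa6* and *Hoxa3* for both of these peaks as well. Their positions were within 500 bp of each other, so their windows overlap, and both were counted. The closest WT peak was 17194 bp from them.

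At *Hoxb5*, a gene expressed in trunk mesoderm and enteric neurons, both lists had a peak, but 585 bp apart and thus not at the same position by the measure used here. The DKO peak, the only one of HoxB assigned to a Hox gene, lay at position 96165187 of chromosome 11 in the coding exon, 361 bp from the start. It had a height of 7.42, an ES height of 2.35, an enrichment of 3.16 and rank 20563, with 43 CpGs and 0 GATA motifs. The WT peak, in the UTR 224 bp from the start, had a height of 5.27 and an ES height of 1.66, so that the enrichment was 3.18. The DKO peak was thus 1.41 times as tall, over an ES height that was also higher. Over all WT peaks with a DKO peak within 500 bp, the median of this ratio was 0.823. Whether heights were scaled for depth is not stated.

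The only HoxC peak was in the WT list. It was assigned to *Hoxc8*, which patterns the ribs and brachial motor neurons, at a distance of 4592 bp, and GENCODE places it in an intron of *Hoxc6*. At position 102829275 of chromosome 15, it had a height of 6.23, an ES height of 1.75, an enrichment of 3.57 and rank 9702, with 18 CpGs. Its GATA motif was 7.5 bp from the centre, the closest of all Hox peaks. The nearest DKO peak was 164431 bp away. The last WT peak of these classes, in the UTR of *Hoxd8* 540 bp from its start and also given for *Hoxd9*, was the tallest Hox peak of either list. Its height was 10.0, but its ES height of 3.00 was also the highest, which left an enrichment of 3.35 and rank 17045.

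In paralog classes 9 to 13, which pattern the limbs, the tail and the urogenital tract, each list named 5 of 16 genes, and 4 of them were in both. *Hoxd11* and *Hoxd12*, which act together in the forearm and hand, shared 1 peak in each list, 2879 bp apart. The WT peak, at position 74517690 of chromosome 2, lay between *Hoxd12* and the coding part of *Hoxd11*, in an exon that GENCODE assigns to the latter, 1928 bp from *Hoxd12*. It had a height of 6.16, an ES height of 1.17, an enrichment of 5.27 and rank 10043, with 25 CpGs and a GATA motif 18.5 bp from the centre. The DKO peak was in the coding exon of *Hoxd11*, 119 bp from its start. Its height of 5.00 was the lowest of the DKO Hox peaks, and its window had 67 CpGs, the most of all Hox peaks, and 0 GATA motifs. *Hoxa13*, a gene of digits and external genitalia, had a DKO peak in its coding exon (height 6.53, ES height 2.00, enrichment 3.27) and the nearest WT peak was 13517 bp away.

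Only 2 Hox positions were in both lists, and both were nearest to a gene of these classes by the distances in the deposited lists. The first was at *Hoxd10*, a gene of hindlimb motor neurons and digits, where the WT and DKO peaks were 9 bp apart, 118 and 127 bp from the gene in the deposited lists and within a UTR in GENCODE. The WT height was 7.80 over an ES height of 2.19 (enrichment 3.56, rank 18088), and the DKO height was 5.09 over an ES height of 1.68 (enrichment 3.02, rank 22718 of 22733). The windows held 30 and 29 CpGs and 0 GATA motifs. The other was at *Hoxa7* and *Hoxa9*, genes of blood progenitors, with peaks 39 bp apart at positions 52171681 and 52171642 of chromosome 6. GENCODE places both in a UTR of *Hoxa7*, a gene of classes 5 to 8, whereas the WT list gives 2372 bp to *Hoxa9* and 3109 bp to *Hoxa7*. There the WT height was 5.02 over 1.35 (enrichment 3.72, rank 17398), and the DKO height was 5.50 over 1.65 (enrichment 3.34, rank 12687). The windows held 38 and 37 CpGs and 0 GATA motifs. The DKO height was 0.652 of the WT height at *Hoxd10* and 1.09 times the WT height at *Hoxa9*, with log2 ratios of -0.62 and 0.13 and a median of -0.24. Over all 9305 WT peaks with a DKO counterpart the median log2 ratio was -0.28, with quartiles of -0.74 and 0.09, so that *Hoxd10* lay between the quartiles and *Hoxa9* just above the upper one. Around the WT peak positions the sequences, with CpGs in capitals and kept to 30 bases because they lie in UTRs, were as follows (mm9, plus strand). They show the shared positions, chr2:74529873-74529902 at *Hoxd10* and chr6:52171667-52171696 in *Hoxa7*.
Hoxd10: aacaCGtgacctgcaaggaggctgCGgctc
Hoxa7 and Hoxa9: tgagcagcagggaaaatataCGactgctgc

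Counterparts were found for 2 of 13 Hox peaks in WT (15.4%, 95% Wilson interval 4.33 to 42.2) beside 45.6% of all WT peaks, and for 2 of 11 in DKO cells (18.2%, 5.14 to 47.7) beside 45.1% of all DKO peaks. The share of the whole list lay above the interval in WT and inside it in DKO cells. Above the middle rank, 0% of 5 WT and 0% of 2 DKO Hox peaks had a counterpart. Among all peaks whose height and enrichment were each within 0.25 of a Hox peak, a counterpart was found for 32.2% in WT and 32.4% in DKO cells on average, with a range over the Hox peaks of 14.0% to 64.8% and 23.3% to 54.6%. Among peaks with a CpG number within 2 of a Hox peak it was found for 59.4% and 44.3% on average.

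The Hox peaks of both lists were rich in CpGs, the DKO peaks more so. The median was 25 CpGs per window in WT Hox peaks (range 1 to 59) and 38 in DKO Hox peaks (20 to 67), against 8 and 21 over the whole lists. The DKO list was thus the richer in CpGs at Hox genes as it was overall. Consecutive tiles of the 4 clusters of the length of a window, 1046 in all, had a median of 8 CpGs, a number that 10 of 13 WT and all 11 DKO Hox peaks exceeded. The place of the peaks also differed. In the WT list 0 of 13 Hox peaks were in a coding exon, beside 2.59% of all WT peaks, and in the DKO list 6 of 11 were, at *Hoxa2*, *Hoxa5*, *Hoxa13*, *Hoxb5*, *Hoxd3* and *Hoxd11*, beside 7.92% of all DKO peaks. UTRs held 5 WT peaks (38.5%, whole list 7.50%) and 3 DKO peaks (27.3%, whole list 13.5%), introns 3 and 1, other exons 1 and 0, and 4 WT peaks and 1 DKO peak were outside the Hox genes. Within 1 kb of the start of a Hox gene there were 4 of 13 WT peaks (30.8%), beside 26.2% of all WT peaks near a gene start, and 7 of 11 DKO peaks (63.6%), beside 47.5%. Hox coding exons mostly lie close to the gene starts and within CpG islands, so these measures are not independent of each other.

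GATA motifs, taken as AGATAA or TGATAA on either strand of the window, were found in 7 of 13 WT Hox peaks (53.8%, 95% Wilson interval 29.1 to 76.8) beside 61.9% of all WT peaks. In the DKO list 1 of 11 Hox peaks had the motif (9.09%, 1.62 to 37.7) beside 38.1% of all DKO peaks. Peaks of like CpG number had it in 41.5% and 12.1% of cases on average, with a range over the Hox peaks of 6.62% to 84.5% and 3.61% to 31.6%. The share of the whole list lay inside the interval of the Hox peaks in WT and just above it in DKO cells. Of the 1046 tiles of the clusters, 31.7% had the motif. The 4 spans together held 417 matches, of which 8 were in WT and 1 in DKO Hox peak windows. When AGATAG and TGATAG were also allowed, the counts rose to 10 of 13 in WT (76.9%, whole list 71.8%) and 6 of 11 in DKO cells (54.5%, whole list 48.9%), so that the low DKO share held for the stricter motif alone. By cluster, WT peaks with the stricter motif were 3 of 5 in HoxB, 3 of 6 in HoxD, 1 of 1 in HoxC and 0 of 1 in HoxA.

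Of the 5 WT Hox peaks above the middle rank, 4 held the motif, and these are shown with the match in capitals (mm9, plus strand, so that TTATCT and TTATCA are matches on the minus strand). They are chr11:96230531-96230590 in the intergenic DNA 3′ of *Hoxb1*, chr15:102829238-102829297 in an intron of *Hoxc6*, chr2:74517679-74517738 between *Hoxd12* and the coding part of *Hoxd11*, and chr2:74572603-74572692 in an intron of *Hoxd3*, which has its 2 matches on opposite strands.
Hoxb1: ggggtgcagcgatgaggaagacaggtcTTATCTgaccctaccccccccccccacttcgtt
Hoxc8: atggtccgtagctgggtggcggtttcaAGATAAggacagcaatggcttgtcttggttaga
Hoxd12: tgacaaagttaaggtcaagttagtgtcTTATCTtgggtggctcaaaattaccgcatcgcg
Hoxd3: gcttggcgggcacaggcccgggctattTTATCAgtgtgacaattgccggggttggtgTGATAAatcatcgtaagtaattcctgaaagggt

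Sequences of the DKO list are shown next. The only DKO Hox window with the stricter motif was that in the coding exon of *Hoxa2*, whose peak ranked 11417, just below the middle of the list. It is shown at chr6:52114580-52114639 with the match in capitals, beside 201 bases around the best-ranked DKO Hox peak, chr2:74553961-74554161 in an intron of *Hoxd3*, with CpGs in capitals (mm9, plus strand). Both were chosen after their values were seen.
Hoxa2: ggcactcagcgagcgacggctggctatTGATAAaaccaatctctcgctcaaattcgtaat
Hoxd3: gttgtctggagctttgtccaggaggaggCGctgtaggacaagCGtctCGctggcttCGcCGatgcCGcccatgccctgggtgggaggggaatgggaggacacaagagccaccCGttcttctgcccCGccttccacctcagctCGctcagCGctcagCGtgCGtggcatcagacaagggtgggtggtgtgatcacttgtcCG

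Peaks that the lists did not assign to a Hox gene were also present in the clusters. With 5 kb added on each side, the spans measured 525 kb and held 15 WT and 12 DKO peaks. This is 2.86 and 2.29 peaks per 100 kb, beside 0.798 and 0.889 over the sequenced genome. HoxA had 0.921 WT and 5.53 DKO peaks per 100 kb, HoxB 3.26 and 1.09, HoxC 1.59 and 0, and HoxD 5.62 and 3.74. The tallest peak of any span was among those not assigned. It lay 5980 bp from *Hoxb13*, a gene of the tail and prostate, in the long interval between it and *Hoxb9* (position 96064741 of chromosome 11), and was in both lists, 47 bp apart. The WT height was 30.3 over an ES height of 3.58 (enrichment 8.47, rank 856), and the DKO height was 10.5 over 3.10 (enrichment 3.38, rank 15627). Its window had 1 GATA motif in each list, and 33 and 30 CpGs. The WT peak was thus far taller than any Hox peak counted above, over an ES height that was similar in both genotypes. Over all WT peaks with a DKO counterpart, the median ratio of DKO to WT height was 0.823. The remaining peak, of height 5.14, was in the WT list in the intron of *Hoxc6* beside the *Hoxc8* peak, and had no GATA motif.

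Genes that act with or on the Hox genes were counted in the same way. Among the TALE homeodomain cofactors, which bind DNA with Hox proteins, the WT list named 5 of 8, *Pbx3*, *Pbx4*, *Meis1*, *Meis2* and *Pknox1*, and the DKO list 6 of 8, *Pbx3*, *Pbx4*, *Meis1*, *Meis2*, *Meis3* and *Pknox2*, beside the 36.4% and 45.5% of all genes. Their best-ranked peak in the WT list was inside *Meis2*, with a height of 22.7 over an ES height of 1.79 (rank 226). In the DKO list it was 4609 bp from *Meis1*, with a height of 21.4 over 1.21 (rank 94). Of the Cdx and ParaHox genes, of which the Cdx genes activate trunk Hox genes, each list named 1 of 6. In the WT list this was *Cdx1* (height 8.57, ES height 1.03, rank 4113, 3351 bp upstream), and in the DKO list it was *Cdx2* (height 5.01, ES height 1.47, rank 17783, 357 bp from the start). Of 2 even-skipped genes at the cluster ends, *Evx1* beside *Hoxa13* was named in both lists through different peaks. The WT peak had a height of 5.51 and lay 4317 bp away, and the DKO peak had a height of 6.36 and lay 13 bp from the start. *Evx2* was in neither list.

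Of the Polycomb and Trithorax regulators, which keep Hox genes silent or active, 22 had a symbol in the annotation. The WT list named 17, *Ezh1*, *Ezh2*, *Suz12*, *Jarid2*, *Rnf2*, *Ring1*, *Pcgf2*, *Cbx2*, *Cbx7*, *Cbx8*, *Phc2*, *Mll1*, *Mll2*, *Wdr5*, *Ash2l*, *Kdm6a* and *Kdm6b*. The DKO list named 18, with *Eed*, *Bmi1*, *Phc1*, *Men1* and *Rbbp5* added, and *Rnf2*, *Cbx2*, *Cbx8* and *Kdm6a* missing. Of all protein-coding genes the lists named 36.4% and 45.5%. The best-ranked peak of this group was at *Kdm6b*, a histone H3K27 demethylase, in both lists, but at different positions, of which that of the WT list also had a DKO peak within 500 bp. It had a height of 11.0 over 1.54 in the WT list (rank 2109), which named the gene for 9 peaks, and of 10.1 over 1.51 in the DKO list (rank 1400), which named it for 16. Of 10 protein-coding neighbors of the clusters, each list named 6. *Skap2*, *Evx1*, *Skap1*, *Calcoco1* and *Lnp* were in both, *Ttll6* in the WT list and *Smug1* in the DKO list. The best-ranked peak was at *Skap1* in the WT list (height 15.7, rank 2579) and at *Skap2* in the DKO list (height 14.0, rank 445). None of the 6 microRNA genes or 7 non-coding genes of the clusters that were looked for was named in either list.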

How the data were processed

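Gata4 ChIP-seq peaks of WT and DKO Flk1(+) cells, 1 library each, were taken from the lists deposited by the authors. Per the labels, CASAVA 1.8.1 and cutadapt were used upstream, and the build is mm9. The aligner is not given in the sources used here. The authors called peaks with DNAnexus tools (bandwidth 30, candidate threshold 5.0, enrichment 3.0 over the ES library of the genotype, mapping ratio 3.0). The deposited height is a signal in each library, the deposited enrichment is the ratio of both, and the deposited rank, a score, follows the authors' −log10 q-values. The ratio was checked for every peak. Genes and distances within 5 kb are those the authors took from RefSeq, and GENCODE vM1 gave gene bodies, exons and the background of all genes. The distances of the file and GENCODE can differ. No column names a library, so each list was assigned to a genotype by its number of peaks in the study.

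Peaks were counterparts when their positions were within 500 bp. Motifs and CpGs were counted in the 501-bp windows, which matched mm9 at all Hox peaks. The 38 genes and the other gene lists were chosen with earlier results of these data known, and Hox genes outside the 38 and some genes of the other lists are not reported here. Named in full were the best-ranked peak of each cluster and list, Hox peaks above the middle rank with the GATA motif, and shared positions. Other named peaks and the sequences without this motif were chosen after their values were seen, as were the unassigned and flanking peaks, the other motifs and the comparison with peaks of like height. Intervals are 95% Wilson intervals. No test was run, since each condition has 1 library. Alternatives were a stricter rank or enrichment, cluster spans, merged peaks, other distances, another motif and a central window of 200 bp. The steps were tested on simulated data. Python 3.11.15, NumPy 2.4.6, pandas 2.3.3, SciPy 1.17.1 and Matplotlib 3.10.9 were used.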

Additional observations from a re-analysis of the deposited data

How the results depend on the processing

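Of 63 alternatives, 34 left a share or median within its 95% interval, a count within 1.5 times or the height ratio as it was, and 29 moved it, mostly because a stricter list holds fewer peaks. Above the middle rank, Hox peaks numbered 5 in WT (HoxA 0, HoxB 2, HoxD 2) and 2 in DKO cells (HoxA 1, HoxB 0, HoxD 1). With an enrichment of 4 or more they numbered 3 in WT (HoxA 0, HoxB 1, HoxC 0, HoxD 2) and 2 in DKO cells (HoxA 1, HoxB 0, HoxD 1), so that the HoxA and HoxB counts of the lists then differed by at most 2. Counting every peak of the spans gave 2 for WT HoxC and 2 for DKO HoxB. Merging peaks within 500 bp gave 5 DKO peaks in HoxA and 10 DKO Hox peaks in all, and left the WT counts as they were. Above the middle rank, 0% of 5 WT and 0% of 2 DKO Hox peaks had a counterpart, and the GATA motif was in 80.0% and 0%. Allowing AGATAG and TGATAG gave 76.9% in WT and 54.5% in DKO cells. Hox genes named fell to 5 in WT and 4 in DKO cells above the middle rank, and to 7 and 7 within 1 kb of the gene. The CpG median above the middle rank was 16 in WT (25 over all Hox peaks, 95% binomial interval of the median 7 to 38) and 29 in DKO cells (38 over all, 29 to 58). Counterpart distances of 100 bp, 250 bp and 1 kb gave shares within the intervals. No shared Hox position had both peaks above the middle rank, so the height ratio had no value there.

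There are 13 and 11 peaks, most of them near the calling thresholds, and 1 library per condition. The lists give no signal of the other library for a peak found in 1 list alone. Depth is not given in the lists, and its part in the counts was not tested. No paired analysis was possible because each condition has 1 library.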

Other observations

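Peaks beside the clusters had a higher median height than the Hox peaks. The 100 kb beyond the 8 ends of the spans held 24 WT and 14 DKO peaks. Their median heights were 9.82 and 7.60, against 7.74 and 6.91 over the whole lists. A counterpart was found for 12 and 10 of them, beside 45.6% of all WT and 45.1% of all DKO peaks. The GATA motif was in 19 of the WT and 8 of the DKO windows, beside 61.9% and 38.1% over the whole lists. The *Hoxb1* side held more than any other, 13 WT and 7 DKO peaks, of which 8 and 6 had a counterpart. There, 28881 bp from *Hoxb1*, WT and DKO peaks 59 bp apart had heights of 18.8 and 18.1, and 31865 bp from it peaks 45 bp apart had heights of 14.7 and 12.8. Near the far end of this flank, upstream of *Skap1*, WT and DKO peaks 3 bp apart had heights of 15.7 and 8.24. The DKO peak was the taller at position 96329649 inside *Skap1*, with 25.6 against 13.3. On the *Hoxa13* side the WT peaks 66119 and 71911 bp from *Hoxa13* had heights of 19.1 and 29.6, and their DKO counterparts 5.67 and 6.88. For all these pairs the reference is the median ratio of DKO to WT height over all pairs of the lists, 0.823. No peak of either list lay within 100 kb beyond the HoxC span, and the 100 kb beyond *Hoxd1* were also empty in both lists. Within 20 kb of the spans there were 3 WT peaks and 1 DKO peak.

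AGGTCA, the core of retinoic acid receptor elements, was found on either strand in 6 of 13 WT Hox windows (46.2%, whole list 26.4%) and 3 of 11 DKO Hox windows (27.3%, whole list 24.4%). The composite TGATNNAT of Pbx and Hox proteins was in 1 WT (7.69%, whole list 15.2%) and 3 DKO windows (27.3%, whole list 10.5%), and TGACAG, bound by Meis proteins, in 4 WT (30.8%, whole list 36.0%) and 2 DKO windows (18.2%, whole list 31.5%). With so few windows these counts are a description only.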
